A study of Mus musculus with 24 samples.

Results

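Interferon response genes are the genes that cells switch on when interferons bind their receptors, and 39 of them, chosen by symbol, were followed among the 23411 gene symbols of a mouse liver RNA-seq count table. All 39 symbols were in the table and all 39 passed the filter on low counts. The study compared WT livers with livers of α7HMZ mice, which carry an exon swap in Hnf4a in every cell of the body and make only P2-HNF4α, the HNF4α isoforms that start at the second promoter of the gene. Male mice of 16 to 20 weeks on a mixed 129/Sv and C57BL/6 background had food ad libitum until 10:30, 13:30 or 20:30, or were killed at 10:30 after a fast of 12 h. There were 8 groups of 3 mice with 1 library per liver. The p-values rest on the spread between mice within groups, estimated jointly over all groups of a fit. Flow cell 375 carried fasted WT and, at 10:30, fed livers of either genotype, and flow cell 377 the rest. WT and α7HMZ livers fed to the same hour thus shared a flow cell, whereas between fasted WT and fasted α7HMZ livers genotype and flow cell cannot be told apart. Fed livers at 10:30 and those at the later times were on different flow cells, so between them time and flow cell cannot be told apart.

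Type I interferons act on genes that carry the interferon-stimulated response element (ISRE), to which a complex holding Stat2 and Irf9 binds, and interferon gamma acts on genes that carry the gamma-activated site (GAS). The induced genes sense viral nucleic acid, block viral translation or budding, coat or break the vacuoles that hold intracellular pathogens, cut and load peptides for presentation to T cells, and attract T cells. In liver, hepatocytes, Kupffer cells, endothelial cells and lymphocytes can all respond, and several of the genes keep a basal level without infection. In bulk liver, fewer cells of a type and less RNA per cell cannot be told apart.

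Total counts ranged from 8545959 to 28445590 per library with a median of 18875060. The lowest count of a member in any library was 2, and 4 members had under 10 counts in some library. Rn45s, ribosomal RNA, took 50.8% of the counts in replicate 1 of fed α7HMZ at 10:30. The hepatocyte markers were present in all libraries. The count of Hnf4a sums all its exons and does not check the genotype. Ifng had at most 2 counts in a library, and no interferon gene itself passed the filter on low counts. A pair of α7HMZ libraries stood apart from their group mates in the members, replicate 1 of the fed 20:30 group and replicate 3 of the fasted group, and values without them are given beside the results they move most.

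To show which members carry an interferon element next to their start, 300-base windows from 250 bases before to 50 bases after the RefSeq start were read for 31 of the 39 members (GRCm38.p6). Dhx58, Oas2, Mx1, Mx2, Usp18, Gbp6, Zbp1 and Parp14 had no window. The ISRE was searched as 2 copies of GAAA with any 2 bases between them and the GAS as TTCNNNGAA, on both strands and without mismatches, and matches of one motif may overlap one another. An ISRE match was present in 18 of the 31 members (58.1%) and in 3.99% of all 27025 genes with windows, and a GAS match in 9 of the 31 (29.0%) and in 9.55% of all genes. The windows of Isg15, Oas1a, Rsad2 and Gbp3 are printed because these members had among the smallest p-values of the fasted genotype comparison, and that of Oasl1 because it had the smallest p in fed livers. Each runs 5′ to 3′ on the strand of the gene, and capitals mark the ISRE matches.
Isg15 (chr4:156200769-156201068, minus strand): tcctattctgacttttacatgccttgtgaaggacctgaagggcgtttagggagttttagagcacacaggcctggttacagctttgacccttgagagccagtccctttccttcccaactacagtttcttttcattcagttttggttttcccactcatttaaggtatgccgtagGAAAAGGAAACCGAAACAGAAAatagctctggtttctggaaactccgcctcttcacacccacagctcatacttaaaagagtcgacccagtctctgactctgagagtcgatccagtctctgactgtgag
Oas1a (chr5:120907476-120907775, minus strand): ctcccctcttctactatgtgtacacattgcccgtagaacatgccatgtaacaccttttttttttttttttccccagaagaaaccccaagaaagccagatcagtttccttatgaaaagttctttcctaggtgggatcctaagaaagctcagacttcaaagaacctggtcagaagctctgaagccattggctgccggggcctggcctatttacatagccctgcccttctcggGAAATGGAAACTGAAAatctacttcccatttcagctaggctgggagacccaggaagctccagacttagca
Rsad2 (chr12:26456403-26456702, minus strand): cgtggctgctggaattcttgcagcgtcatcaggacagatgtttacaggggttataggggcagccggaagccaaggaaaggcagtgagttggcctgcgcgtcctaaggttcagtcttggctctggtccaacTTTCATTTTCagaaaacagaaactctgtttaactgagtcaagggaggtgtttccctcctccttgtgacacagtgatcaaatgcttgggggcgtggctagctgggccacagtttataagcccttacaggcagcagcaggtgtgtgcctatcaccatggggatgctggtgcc
Gbp3 (chr3:142559794-142560093, plus strand, first of the gene's starts): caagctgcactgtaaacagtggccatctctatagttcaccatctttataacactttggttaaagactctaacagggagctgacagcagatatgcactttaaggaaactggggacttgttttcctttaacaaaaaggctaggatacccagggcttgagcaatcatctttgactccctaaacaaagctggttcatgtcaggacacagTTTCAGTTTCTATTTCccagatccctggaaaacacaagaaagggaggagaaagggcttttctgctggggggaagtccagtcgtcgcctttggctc
Oasl1 (chr5:114922990-114923289, plus strand): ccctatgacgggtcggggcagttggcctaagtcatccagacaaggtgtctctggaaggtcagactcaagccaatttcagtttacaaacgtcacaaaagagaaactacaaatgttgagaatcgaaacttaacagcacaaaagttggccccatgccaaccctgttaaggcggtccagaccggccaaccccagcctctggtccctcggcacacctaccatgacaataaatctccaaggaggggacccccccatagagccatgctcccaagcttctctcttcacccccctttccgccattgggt
Counted from the start base as 0, the first bases of the matches lay at -78, -72 and -66 in Isg15, at -20 and -14 in Oas1a, at -120 in Rsad2 and at -45 and -39 in Gbp3, whereas the Oasl1 window held neither motif. Of the 15 members with a window that were called higher in fasted α7HMZ livers, 10 held an ISRE match, and of the 16 with a window that were not called, 8 did. A match describes letters in the reference genome and is not a measured binding site.

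Usp18, Psmb8 and Mx2 were higher and Oasl1 and Bst2 lower in α7HMZ livers on average over the 3 times, 5 of 39 members. Over all 13334 genes tested, 13.3% were called higher and 13.2% lower (26.5% in either direction). The median log2 fold change of the members was 0.07 against 0.03 for all genes, with 25 of the 39 positive. The 5 calls held when each of the 18 libraries was left out in turn. The count became 8 without replicate 1 of the α7HMZ group at 20:30 (median -0.14), when 12.5% of all genes were called higher and 12.7% lower. It became 9 without replicate 2 of that group. The members' median was -0.18 without 4 libraries (those highest in Rn45s, Ctrb1 or Krt19), which leaves 1 α7HMZ liver at 20:30. At the single times 2 members were called higher and 2 lower at 10:30 (all genes 8.36% and 8.98%), 3 higher and 1 lower at 13:30 (6.19% and 6.61%), and 2 higher and 4 lower at 20:30 (8.29% and 10.8%). The count at 10:30 was 2 without α7HMZ replicate 2 or WT replicate 1 or 3 of that time. At 13:30 it was 1 without α7HMZ replicate 2 or 3, 2 without α7HMZ replicate 1 or WT replicate 1 or 3, and 7 without α7HMZ replicate 1 of 20:30. At 20:30 it was 3 without α7HMZ replicate 3 and 2 without WT replicate 3.

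In fasted α7HMZ livers 19 of the 39 members were higher than in fasted WT livers and 0 were lower. Of 13103 genes 6.90% were called higher and 8.65% lower. At an unadjusted p under 0.05, 27 members passed in either direction, and the share of all genes at that threshold is not given. The median log2 fold change of the members was 1.12 against 0.0005 for all genes, and 36 of the 39 were positive. Without replicate 3 of the fasted α7HMZ group 12 members were called, all among the 19, and the median was 0.49. In that fit 4.34% of all genes were called higher and 6.5% lower. The 12 were Usp18, Zbp1, Isg15, Gbp3, Oas1a, Rsad2, Cxcl9, Ifi44, Ifit3, Ifit1, Gbp7 and Irgm2. Irf7, Oasl2, Gbp6, Igtp, Irgm1, Psmb8 and Parp14 were not called without that library. The count was also 12 without replicate 2 of the fasted WT group, and it was 6, of which 5 were higher, when 3 libraries highest in Rn45s, Ctrb1 or Krt19 were dropped, which leaves 1 fasted WT liver. Cxcl9, Gbp3, Ifi44, Ifit1, Ifit3, Irgm2, Isg15, Oas1a, Rsad2, Usp18 and Zbp1, 11 members, were called when each of the 12 libraries was left out in turn.

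**Figure D1:**
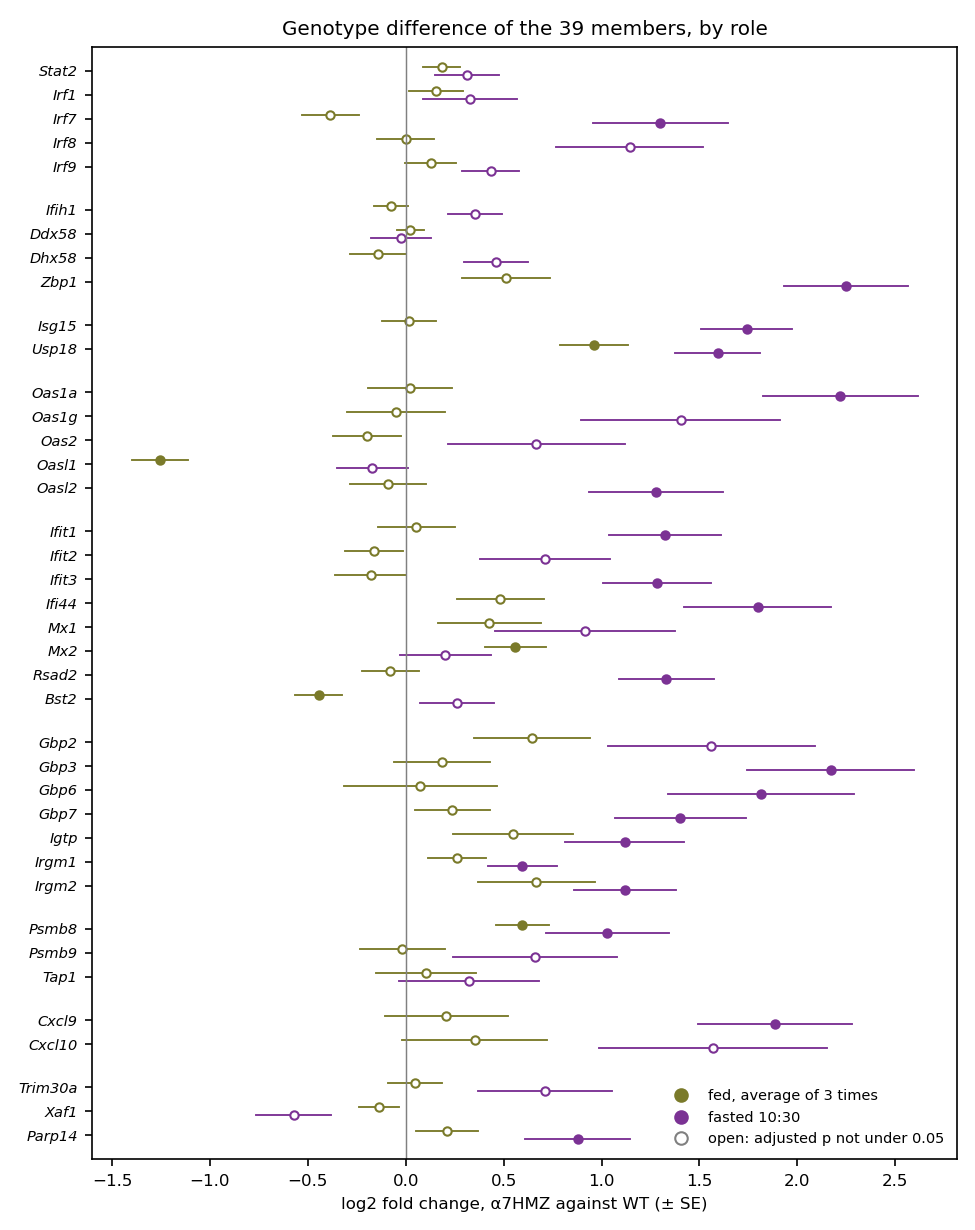
Log2 fold change of α7HMZ against WT livers (x axis, ± SE) for each of the 39 members, grouped by role from transcription factors at the top to other response genes at the bottom, in the average of the fed times and after fasting, with filled points where the edgeR adjusted p was under 0.05. The fed points lie around 0 with a median of 0.07 and the fasted points mostly to the right, with a median of 1.12.

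Kupffer cell and endothelial markers moved with the fasted genotype comparison, in which 6.90% of all genes were called higher and 8.65% lower. Of 9 Kupffer cell markers 5 were higher in fasted α7HMZ livers (median log2 fold change 1.39). Their summed level was 111.8 to 203.3 CPM in fasted WT livers and 182.6, 202.0 and 881.6 CPM in the 3 fasted α7HMZ livers, the last in replicate 3. Without replicate 3, 0 of the 9 were called and their median was 0.34. Of 7 sinusoidal endothelial markers 3 were higher (median 0.59, sums of 134.6 to 209.6 CPM in WT and 225.3 to 272.5 CPM in α7HMZ), and 0 were called without replicate 3. The 8 T and NK cell markers summed to 2.73 to 3.28 CPM in fasted WT livers and to 2.41, 2.21 and 9.87 CPM in the fasted α7HMZ livers. The monocyte and neutrophil markers summed to 4.63 to 7.51 CPM in fasted WT livers and to 4.25, 5.71 and 16.3 CPM in fasted α7HMZ livers. No marker of the Kupffer cell, endothelial or T and NK cell lists was at 0 in every library of a fasted group. Of the cholangiocyte markers 1 of 4 was higher and 3 lower, and of the hepatocyte markers 3 of 7 were lower. The part of these cells in the members' difference was not tested.

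Stat2, Isg15, Ifih1, Ddx58, Oas1a, Gbp3, Gbp6, Gbp7, Trim30a, Cxcl9 and Parp14 were lower in fasted than in fed WT livers and Xaf1 was higher, 11 and 1 of 39, against 10.6% and 12.0% of all genes. The members' median was -0.57, against 0.004 for all genes. Both WT groups were on flow cell 375. In α7HMZ livers Ifit1, Oasl1 and Rsad2 were higher after fasting and 0 were lower (all genes 6.68% and 5.90%), with a members' median of 0.38, which was -0.11 without replicate 3 of the fasted group. Fed α7HMZ livers at 10:30 were on flow cell 375 and fasted ones on 377, so fasting and flow cell cannot be told apart in α7HMZ livers. The WT count was 3 without fed WT replicate 2, 6 without fed WT replicate 1, 5 without fasted WT replicate 2 and 7 without fasted WT replicate 1. It was 19 without replicate 3 of the fasted α7HMZ group, when 12.5% of all genes were higher and 12.2% lower. That library is in neither WT group but enters the filter on low counts, the normalization and the shared estimate of spread. Cxcl9, Gbp7 and Ifih1 were called in each of these fits. The α7HMZ count was 6 without fasted α7HMZ replicate 2 and also without replicate 3, when 4 of the 6 were lower. Of the Kupffer cell markers 2 of 9 were lower in fasted WT livers (median -1.21; fed sums 298.7 to 400.5 CPM, fasted 111.8 to 203.3 CPM), and of the endothelial markers 5 of 7 (median -0.92). Their part in the WT result was not tested.

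**Figure D2:**
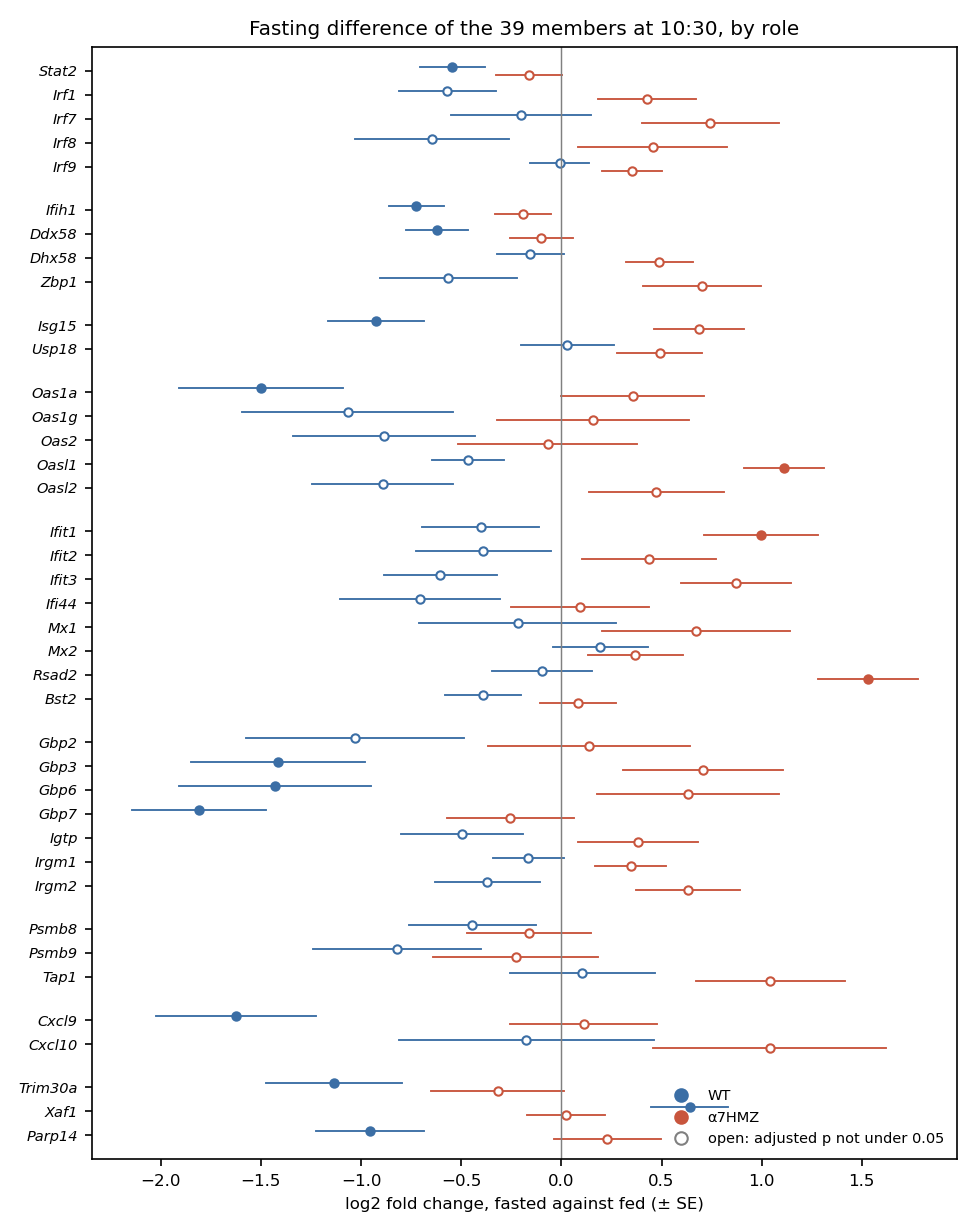
Log2 fold change of fasted against fed livers at 10:30 (x axis, ± SE) for the 39 members by role in WT and in α7HMZ livers, with filled points where the edgeR adjusted p was under 0.05. The WT points lie mostly to the left of 0 (median -0.57) and the α7HMZ points mostly to the right (median 0.38, or -0.11 without fasted replicate 3).

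Whether the genotype difference itself changed with fasting was tested as an interaction. It was called for 1 member, Oasl1, against 0.160% of all genes called in the positive direction. An unadjusted p under 0.05 was found for 19 members, and the share of all genes at that threshold is not given. The interaction was positive in 38 of 39 members with a median of 0.94, against -0.03 for all genes. Next by p were Isg15 (log2 fold change 1.62, SE 0.33, edgeR adjusted p = 0.0714) and Rsad2. DESeq2 called 6 members, and the edgeR call of Oasl1 was lost in 8 of the 12 fits that left out 1 library (adjusted p up to 0.113), among them the fit without replicate 3 of the fasted α7HMZ group. Rsad2 was called without fasted α7HMZ replicate 1 and Isg15 without fasted α7HMZ replicate 2. The fed 10:30 and fasted comparisons differed in their counts, and with all 12 libraries the edgeR test of the difference passed for Oasl1 alone. Fasted α7HMZ livers were the only group of the 4 on flow cell 377.

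**Figure D3:**
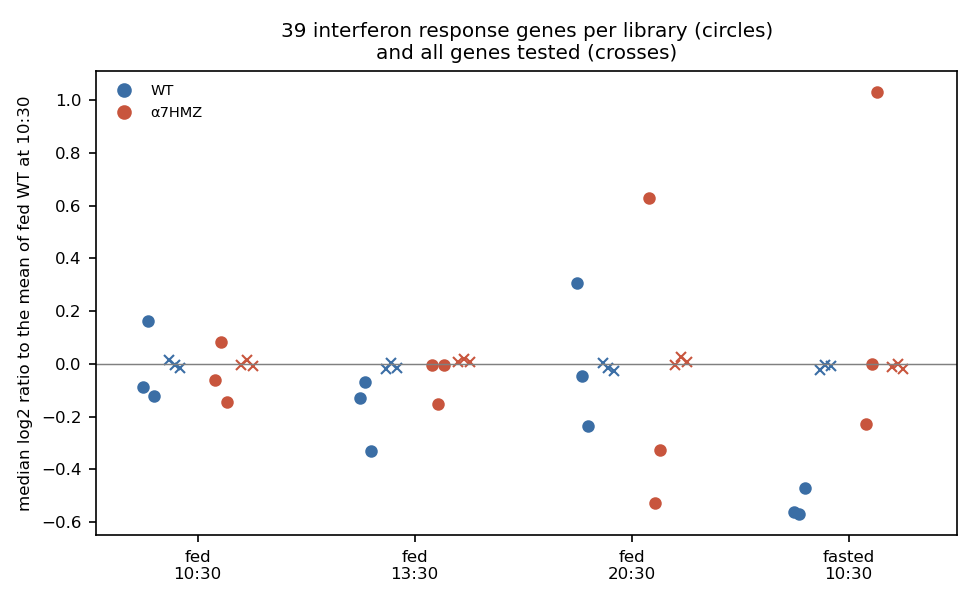
Median log2 ratio of the 39 members (circles) and of all genes tested (crosses) to the mean of the fed WT libraries at 10:30 (y axis), for each of the 24 libraries by group and genotype. The 3 fasted WT libraries lie between -0.57 and -0.47, and replicate 3 of fasted α7HMZ at 1.03 and replicate 1 of fed α7HMZ at 20:30 at 0.63 lie above all others, while all genes stay near 0.

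Among the transcription factors of the response, Irf7, which drives the type I interferon genes, was lower in α7HMZ livers at 20:30 when fed and higher after fasting. In fed WT livers Irf7 was at 14.7, 19.7 and 12.7 CPM at 10:30, 26.97, 31.8 and 19.1 CPM at 13:30 and, at 20:30, 32.1, 26.3 and 34.3 CPM. In fed α7HMZ livers it was at 19.8, 27.5 and 13.6 CPM at 10:30, 18.8, 18.7 and 20.2 CPM at 13:30 and, at 20:30, 20.1, 10.8 and 12.5 CPM. All 3 α7HMZ livers lay below the WT livers at 20:30, whereas the groups overlapped at 10:30 and 13:30. The difference was called at 20:30 (log2 fold change -1.09, SE 0.25, edgeR adjusted p = 0.00574) and not in the fed average (log2 fold change -0.38, SE 0.14, edgeR adjusted p = 0.056). After fasting it was at 8.29, 12.3 and 20.3 CPM in WT and 25.1, 26.1 and 49.8 CPM in α7HMZ livers. The fasted α7HMZ livers were all above the WT livers, with replicate 3 highest (log2 fold change 1.30, SE 0.34, edgeR adjusted p = 0.0229; without replicate 3 log2 fold change 0.89, SE 0.32, edgeR adjusted p = 0.0978). That call was also lost without replicate 1 or replicate 2 of the fasted WT group.

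Irf1, a factor induced by interferon gamma, was among the 3 members whose genotype difference depended on the time of day in fed livers (edgeR adjusted p = 0.0434; lost in 10 of the 18 fits without 1 library, adjusted p up to 0.107). It was at 30.6, 29.9 and 22.3 CPM at 10:30, 16.9, 23.6 and 22.7 CPM at 13:30 and, at 20:30, 31.1, 38.5 and 24.4 CPM in fed WT livers. The fed α7HMZ livers had 16.3, 13.5 and 22.2 CPM at 10:30, 28.4, 32.7 and 46.6 CPM at 13:30 and, at 20:30, 52.8, 36.02 and 29.7 CPM. All α7HMZ livers were below WT at 10:30 and all were above at 13:30, and the groups overlapped at 20:30. The difference was -0.66 at 10:30 (SE 0.24, edgeR adjusted p = 0.0721) and passed at 13:30 (log2 fold change 0.77, SE 0.24, edgeR adjusted p = 0.0392; lost in 5 of the 18 fits without 1 library, up to 0.215). In fasted livers Irf1 was at 19.5, 17.2 and 18.97 CPM in WT and 24.6, 14.8 and 30.9 CPM in α7HMZ, and the groups overlapped (log2 fold change 0.33, SE 0.24, edgeR adjusted p = 0.39).

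Stat2 and Irf9, subunits of the factor that binds the ISRE, and Irf8, a factor of myeloid cells, were not called in the fed average or after fasting. Stat2 was higher in α7HMZ livers at 20:30 (log2 fold change 0.51, SE 0.17, edgeR adjusted p = 0.0394), with WT at 45.9, 65.2 and 36.7 CPM and α7HMZ at 83.3, 68.5 and 57.98 CPM. These groups overlapped, and the call was lost in 5 of the 18 fits without 1 library, among them that without replicate 1 of the α7HMZ group (log2 fold change 0.37, SE 0.17, edgeR adjusted p = 0.175). After fasting the log2 fold changes were 0.31 for Stat2, 0.43 for Irf9 and 1.14 for Irf8, and without replicate 3 of α7HMZ they were 0.24, 0.36 and 0.36.

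Of the nucleic acid sensors, Zbp1, which binds Z-form nucleic acid and can start necroptosis, had the largest genotype difference of the 39 members after fasting. It was at 1.42, 1.13 and 1.03 CPM in fasted WT livers and 4.83, 4.26 and 8.15 CPM in fasted α7HMZ livers. Every α7HMZ liver was above every WT liver (log2 fold change 2.25, SE 0.32, edgeR adjusted p = 0.000417; without replicate 3 1.89, SE 0.28, edgeR adjusted p = 0.000713). In fed WT livers it was at 1.23, 2.52 and 1.63 CPM at 10:30, 3.05, 3.44 and 2.92 CPM at 13:30 and, at 20:30, 8.22, 4.999 and 5.42 CPM. In fed α7HMZ livers they were 3.15, 4.05 and 3.38 CPM at 10:30, 3.45, 3.52 and 5.17 CPM at 13:30 and, at 20:30, 13.1, 4.13 and 3.94 CPM. The groups did not overlap at 10:30 or, narrowly, at 13:30 and they overlapped at 20:30, where replicate 1 of α7HMZ was highest, and the fed average was not called (log2 fold change 0.51, SE 0.23, edgeR adjusted p = 0.107). Zbp1 (chromosome 2, 173206612 to 173218923 in mm10) lies 9.63 Mb from Hnf4a, the modified gene, on the same chromosome.

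Ddx58, the RIG-I sensor of viral RNA, had the smallest p of the 39 when the genotype difference was tested across the 3 times (edgeR adjusted p = 0.0167). WT livers, when fed, had 27.04, 30.6 and 26.8 CPM at 10:30, 15.4, 15.3 and 12.8 CPM at 13:30 and, at 20:30, 14.6, 13.97 and 13.4 CPM. Among α7HMZ livers, the fed values were 21.5, 20.2 and 16.5 CPM at 10:30, 18.9, 19.4 and 19.8 CPM at 13:30 and, at 20:30, 18.3, 14.6 and 14.9 CPM. The WT livers were lower at 13:30 and 20:30 than at 10:30, which was not tested and lies between different flow cells. The α7HMZ livers were all below WT at 10:30 (log2 fold change -0.53, SE 0.12, edgeR adjusted p = 0.00562) and all above WT at 13:30 (log2 fold change 0.41, SE 0.12, edgeR adjusted p = 0.0299). In fasted livers Ddx58 was at 21.5, 16.6 and 16.5 CPM in WT and 18.3, 15.4 and 20.4 CPM in α7HMZ, with overlap (log2 fold change -0.02, SE 0.15, edgeR adjusted p = 0.939). All fasted WT livers were below all fed WT livers of the same hour (log2 fold change -0.62, SE 0.15, edgeR adjusted p = 0.0114), a call that was lost without replicate 2 of the fed or of the fasted WT group (adjusted p up to 0.054). Without replicate 2 of the fed WT group the test of genotype by time gave an edgeR adjusted p of 0.053.

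Ifih1, the MDA5 sensor of long double-stranded RNA, fell with fasting in WT livers. It was at 31.3, 33.2 and 30.3 CPM in fed and 21.2, 20.5 and 15.4 CPM in fasted WT livers at 10:30. These groups did not overlap (log2 fold change -0.72, SE 0.14, edgeR adjusted p = 0.00256). In α7HMZ livers it was at 28.4, 29.5 and 26.3 CPM when fed and 23.6, 22.2 and 27.7 CPM when fasted, and the groups overlapped (log2 fold change -0.19, SE 0.14, edgeR adjusted p = 0.407). At the later times fed WT livers had 26.6, 23.7 and 20.8 CPM at 13:30 and 26.01, 17.2 and 17.8 CPM at 20:30, and fed α7HMZ livers 21.9, 17.6 and 23.8 CPM and 23.8, 21.4 and 21.2 CPM. The genotypes overlapped at both. Dhx58, the LGP2 regulator of these sensors, was not called for genotype in either feeding state (-0.14 in the fed average and 0.46 after fasting).

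The ISG15 system is a ubiquitin-like modifier, Isg15, and the protease Usp18, which removes it and also damps signalling at the type I interferon receptor. Usp18 and Psmb8 were the members called in both genotype comparisons, the fed average and the fasted livers. In fed WT livers Usp18 was at 3.49, 5.54 and 4.07 CPM at 10:30, 2.91, 4.83 and 2.46 CPM at 13:30 and, at 20:30, 9.12, 5.13 and 4.64 CPM. In fed α7HMZ livers it was at 9.26, 11.4 and 8.15 CPM at 10:30, 7.26, 9.87 and 8.45 CPM at 13:30 and, at 20:30, 12.6, 6.25 and 7.14 CPM. After fasting WT livers had 4.52, 4.21 and 4.55 CPM and α7HMZ livers 11.6, 11.2 and 17.5 CPM. The genotypes did not overlap at 10:30, at 13:30 or after fasting, and they overlapped at 20:30. Usp18 was higher in the fed average (log2 fold change 0.96, SE 0.17, edgeR adjusted p = 0.00039), at 10:30 (log2 fold change 1.15, SE 0.31, edgeR adjusted p = 0.016), at 13:30 (log2 fold change 1.30, SE 0.30, edgeR adjusted p = 0.00717) and after fasting (log2 fold change 1.59, SE 0.22, edgeR adjusted p = 0.000329), and was not called at 20:30 (log2 fold change 0.44, SE 0.30, edgeR adjusted p = 0.322). The 10:30 call was lost without replicate 1 or 3 of WT or replicate 2 of α7HMZ at that time (edgeR adjusted p up to 0.0816). Without replicate 1 of fed α7HMZ at 20:30 the Usp18 difference at 20:30 was 0.05 (SE 0.30, edgeR adjusted p = 0.932). Its difference after fasting did not pass as larger than that in fed livers (log2 fold change 0.46, SE 0.31, edgeR adjusted p = 0.497).

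Isg15 was called higher in α7HMZ livers after fasting and not in the fed average. The fed WT level was 4.22, 6.09 and 3.99 CPM at 10:30, 5.09, 5.47 and 3.21 CPM at 13:30 and, at 20:30, 4.11, 4.61 and 3.74 CPM. Fed α7HMZ livers had 4.89, 4.95 and 5.77 CPM at 10:30, 4.76, 3.83 and 5.17 CPM at 13:30 and, at 20:30, 5.32, 3.31 and 2.98 CPM. The genotypes overlapped at each time (log2 fold change 0.02, SE 0.14, edgeR adjusted p = 0.946 for the fed average). After fasting it was at 2.21, 2.13 and 3.13 CPM in WT and 9.34, 6.36 and 9.58 CPM in α7HMZ livers. All fasted WT livers were below all fed WT livers at 10:30 (log2 fold change -0.93, SE 0.24, edgeR adjusted p = 0.0141; up to 0.0797 without replicate 2 of either WT group) and all fasted α7HMZ livers above all fasted WT livers (log2 fold change 1.74, SE 0.23, edgeR adjusted p = 0.000278). The genotype call held without replicate 3 of the fasted α7HMZ group (log2 fold change 1.62, SE 0.25, edgeR adjusted p = 0.000928).

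**Figure D4:**
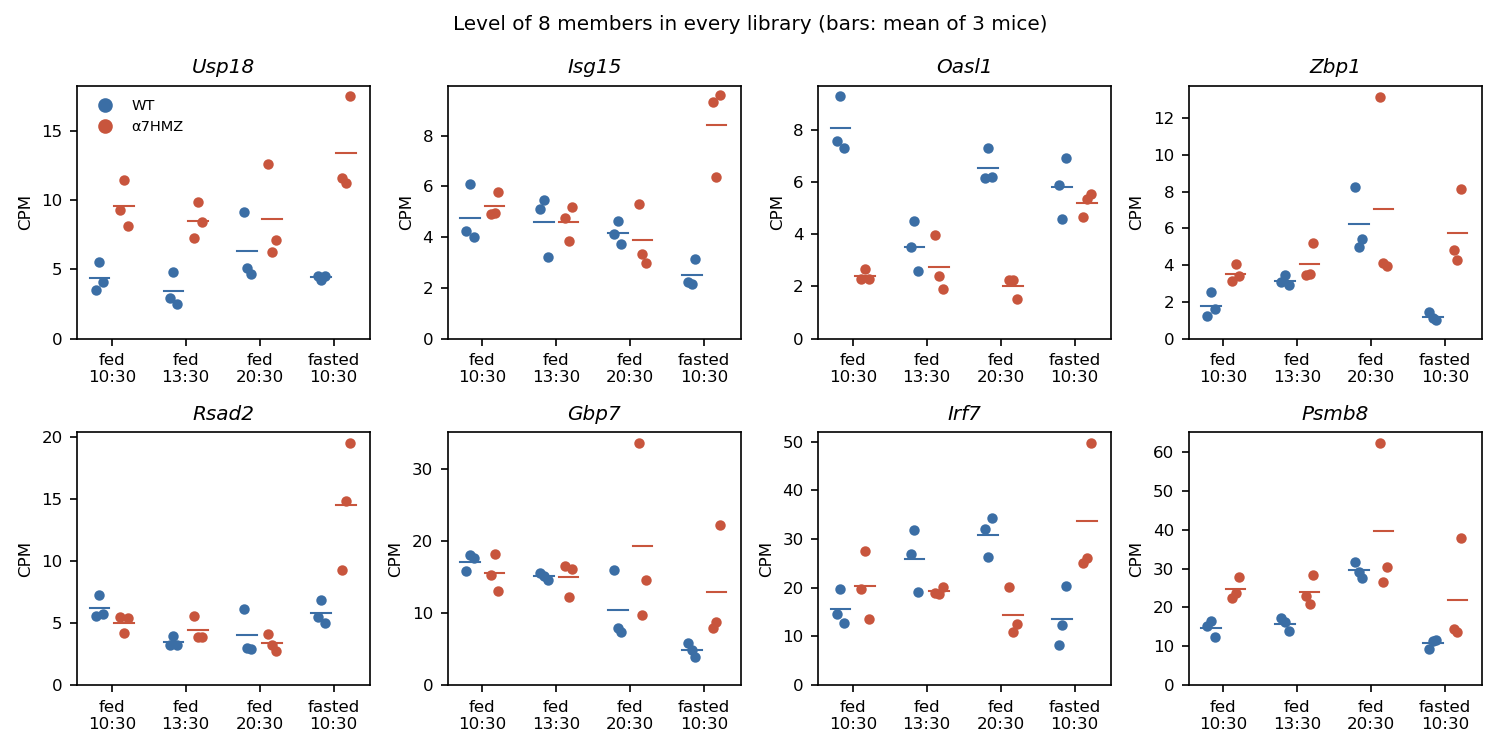
CPM (y axis, from 0) of Usp18, Isg15, Oasl1, Zbp1, Rsad2, Gbp7, Irf7 and Psmb8 in each of the 24 libraries by group, with WT in blue, α7HMZ in red and a bar at the mean of the 3 mice. Usp18 of α7HMZ is above WT at 10:30, 13:30 and after fasting, Oasl1 of α7HMZ is below WT at 10:30 and 20:30, and Isg15 separates the genotypes only after fasting.

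The 2-5A synthetase family makes the second messenger that activates RNase L. Mouse Oasl1 is a relative that is known to hold back translation of Irf7. Oasl1 had the smallest p of the 39 members in fed livers and was lower in α7HMZ livers. Fed WT livers had 7.58, 9.297 and 7.32 CPM at 10:30, 3.52, 4.49 and 2.58 CPM at 13:30 and, at 20:30, 6.14, 7.31 and 6.19 CPM. In fed α7HMZ livers they were 2.27, 2.68 and 2.27 CPM at 10:30, 3.96, 2.400 and 1.897 CPM at 13:30 and, at 20:30, 2.26, 2.25 and 1.52 CPM. All α7HMZ livers were below WT at 10:30 and 20:30, and the groups overlapped at 13:30, where the WT level was lowest. The difference was called in the fed average (log2 fold change -1.26, SE 0.14, edgeR adjusted p = 2.23e-06), at 10:30 (log2 fold change -1.74, SE 0.25, edgeR adjusted p = 0.000107) and at 20:30 (log2 fold change -1.68, SE 0.25, edgeR adjusted p = 0.00016), not at 13:30 (log2 fold change -0.35, SE 0.24, edgeR adjusted p = 0.414), and it depended on the time (edgeR adjusted p = 0.0371; lost in 11 of the 18 fits without 1 library, edgeR adjusted p up to 0.102).

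After fasting Oasl1 was at 5.89, 4.57 and 6.94 CPM in WT and 4.67, 5.37 and 5.53 CPM in α7HMZ livers. The genotypes then overlapped (log2 fold change -0.17, SE 0.18, edgeR adjusted p = 0.578). Oasl1 was higher in fasted than in fed α7HMZ livers (log2 fold change 1.11, SE 0.20, edgeR adjusted p = 0.00252) and was not called in WT livers (log2 fold change -0.47, SE 0.18, edgeR adjusted p = 0.0795). The test of the difference passed for Oasl1 (log2 fold change 1.58, SE 0.27, edgeR adjusted p = 0.0295), but was lost in 8 of the 12 fits without 1 library and under the replicate block, which called 0 members. The fed and fasted α7HMZ livers were on different flow cells and the WT livers on 1, so this difference and flow cell cannot be told apart.

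Oas1a was called higher in α7HMZ livers after fasting. In fasted livers it was at 0.5399, 0.8304 and 0.8801 CPM in WT and 2.098, 2.59 and 5.93 CPM in α7HMZ. The genotypes did not overlap (log2 fold change 2.22, SE 0.40, edgeR adjusted p = 0.00225; without replicate 3 1.62, SE 0.29, edgeR adjusted p = 0.0029). WT livers, when fed, had 1.72, 2.52 and 2.196 CPM at 10:30, 2.405, 3.04 and 1.89 CPM at 13:30 and, at 20:30, 1.69, 2.56 and 1.61 CPM. Among α7HMZ livers, the fed values were 2.45, 3.405 and 2.44 CPM at 10:30, 1.74, 1.703 and 2.701 CPM at 13:30 and, at 20:30, 3.06, 0.688 and 1.57 CPM. The genotypes overlapped at each fed time, and the fasted WT livers were all below the fed WT livers at 10:30 (log2 fold change -1.50, SE 0.41, edgeR adjusted p = 0.0189; up to 0.0706 without fed WT replicate 2 or fasted WT replicate 1). Oasl2 was called higher after fasting (log2 fold change 1.28, SE 0.34, edgeR adjusted p = 0.0241; up to 0.0895 without fasted WT replicate 2 or 3 or α7HMZ replicate 3) and Oas1g (1.40) and Oas2 (0.67) were not. Without α7HMZ replicate 3 the differences were 0.69 for Oasl2, 0.86 for Oas1g and -0.04 for Oas2. Oas2 was lower in α7HMZ livers at 13:30 (log2 fold change -0.85, SE 0.27, edgeR adjusted p = 0.0422; lost in 8 of the 18 fits without 1 library, up to 0.185). Oas1a and Oas1g are close paralogs, and reads they share with one another or with other Oas1 genes were dropped by unique alignment.

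Among the other antiviral effectors, Rsad2, the enzyme viperin that makes a chain-terminating nucleotide, was called higher in fasted than in fed α7HMZ livers. It was at 5.58, 7.26 and 5.69 CPM in fed WT, 5.497, 6.82 and 4.99 CPM in fasted WT, 5.51, 4.22 and 5.38 CPM in fed α7HMZ and 9.23, 14.8 and 19.5 CPM in fasted α7HMZ livers at 10:30. The 3 fasted α7HMZ livers were above all the others. It was higher in fasted than in fed α7HMZ livers, which were on different flow cells (log2 fold change 1.53, SE 0.25, edgeR adjusted p = 0.00131), and was not called in WT livers (log2 fold change -0.10, SE 0.25, edgeR adjusted p = 0.806), and the fasted genotypes differed (log2 fold change 1.33, SE 0.24, edgeR adjusted p = 0.00254; without replicate 3 1.05, SE 0.22, edgeR adjusted p = 0.00776). The test of the difference between the 2 fasting effects did not pass (log2 fold change 1.63, SE 0.35, edgeR adjusted p = 0.0916). At 13:30 and 20:30 fed WT livers had 3.24, 3.98 and 3.21 CPM and 6.14, 2.95 and 2.901 CPM, and fed α7HMZ livers 5.55, 3.87 and 3.85 CPM and 4.09, 3.19 and 2.76 CPM, with overlap at both times.

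Bst2, tetherin, which holds budding virus at the cell surface, was lower in fed α7HMZ livers. The fed WT level was 77.9, 97.03 and 79.5 CPM at 10:30, 95.9, 111 and 101 CPM at 13:30 and, at 20:30, 126, 155 and 139 CPM. Fed α7HMZ livers had 60.9, 76.4 and 82.9 CPM at 10:30, 61.5, 76.3 and 81.96 CPM at 13:30 and, at 20:30, 131, 78.7 and 57.03 CPM. The groups did not overlap at 13:30, and at 20:30 replicate 1 of α7HMZ alone reached the WT range. The fed average was called (log2 fold change -0.45, SE 0.12, edgeR adjusted p = 0.0106), as was 20:30 (log2 fold change -0.65, SE 0.21, edgeR adjusted p = 0.0391), where the difference was -1.05 without replicate 1 (SE 0.17, edgeR adjusted p = 0.000437) and the call was lost without replicate 2 or 3 of either genotype (adjusted p up to 0.165). After fasting Bst2 was at 52.9, 58.8 and 81.9 CPM in WT and 65.5, 70.8 and 96.3 CPM in α7HMZ livers, with overlap (log2 fold change 0.26, SE 0.19, edgeR adjusted p = 0.384).

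Mx2, a dynamin-like restriction factor, was higher in fed α7HMZ livers. Fed WT livers had 5.08, 3.94 and 4.23 CPM at 10:30, 2.96, 3.68 and 1.26 CPM at 13:30 and, at 20:30, 1.98, 3.85 and 2.84 CPM. In fed α7HMZ livers they were 4.28, 4.62 and 4.66 CPM at 10:30, 4.61, 4.84 and 4.598 CPM at 13:30 and, at 20:30, 5.96, 4.38 and 4.44 CPM. The genotypes overlapped at 10:30 and did not at 13:30 and 20:30. The genotype difference was called in the fed average (log2 fold change 0.56, SE 0.16, edgeR adjusted p = 0.0124). It was also called at 20:30 (log2 fold change 0.85, SE 0.28, edgeR adjusted p = 0.0428). WT livers were lower at the later times than at 10:30, which was not tested and lies between different flow cells. After fasting it was at 5.45, 3.08 and 6.55 CPM in WT and 6.24, 6.39 and 4.85 CPM in α7HMZ livers, with overlap (log2 fold change 0.20, SE 0.23, edgeR adjusted p = 0.61). The 20:30 call was lost in 10 of the 18 fits without 1 library, among them that without replicate 1 of the α7HMZ group (log2 fold change 0.68, SE 0.31, edgeR adjusted p = 0.153).

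Ifit1 and Ifit3, which bind foreign RNA caps and ends, and Ifi44 were called higher after fasting, at 1.33, 1.28 and 1.80 on the log2 scale, also without replicate 3. Without it they were 0.90, 0.86 and 1.55. Ifit2 (0.71; 0.29 without replicate 3) and Mx1 (0.91; 0.54) were not called. In the fed average these 5 lay between -0.18 and 0.48 and 0 were called. Ifit1 was called higher with fasting in α7HMZ livers (log2 fold change 1.00, SE 0.29, edgeR adjusted p = 0.0357), and this was lost without any 1 of the fed α7HMZ livers or fasted replicate 3 (up to 0.139).

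The interferon-inducible GTPases, which gather on the vacuoles of intracellular pathogens, were called higher after fasting in 6 of 7 members, all but Gbp2, with log2 fold changes from 0.60 to 2.17 (6.90% of all genes were called higher), and in 0 of 7 in the fed average (13.3% of all genes called higher and 13.2% lower). Without replicate 3 of fasted α7HMZ only Gbp3, Gbp7 and Irgm2 were called, and Gbp6 (0.75), Igtp (0.53) and Irgm1 (0.36) were not. Gbp3 was at 1.86, 1.54 and 1.81 CPM in fasted WT and 4.46, 4.26 and 15.1 CPM in fasted α7HMZ livers. These groups did not overlap (log2 fold change 2.17, SE 0.43, edgeR adjusted p = 0.00411; without replicate 3 1.29, SE 0.21, edgeR adjusted p = 0.00167). In fed WT livers the values were 4.31, 5.48 and 4.23 CPM at 10:30, 4.26, 4.32 and 3.89 CPM at 13:30 and, at 20:30, 7.28, 3.72 and 2.84 CPM. Among α7HMZ livers, the fed values were 4.11, 5.76 and 4.71 CPM at 10:30, 3.85, 3.72 and 4.66 CPM at 13:30 and, at 20:30, 13.5, 2.75 and 3.88 CPM. The fed genotypes overlapped at each time.

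Gbp7 had the smallest p of the 39 members in the comparison of fasted with fed WT livers. It was at 15.8, 18.04 and 17.6 CPM in fed and 5.89, 4.804 and 3.86 CPM in fasted WT livers at 10:30. In α7HMZ livers it was at 15.3, 18.2 and 12.98 CPM when fed and 7.97, 8.68 and 22.2 CPM when fasted. The WT groups did not overlap (log2 fold change -1.81, SE 0.34, edgeR adjusted p = 0.00205), the α7HMZ groups did, with fasted replicate 3 highest (log2 fold change -0.25, SE 0.32, edgeR adjusted p = 0.655), and fasted α7HMZ livers were all above fasted WT livers (log2 fold change 1.40, SE 0.33, edgeR adjusted p = 0.0129; adjusted p = 0.0557 without fasted WT replicate 3, and a difference of 0.75 without α7HMZ replicate 3). At 13:30 and 20:30 fed WT livers had 15.5, 15.1 and 14.6 CPM and 15.9, 7.95 and 7.35 CPM, and fed α7HMZ livers 16.5, 12.3 and 16.1 CPM and 33.5, 9.76 and 14.5 CPM, with overlap. The annotated spans of Igtp and Irgm2 overlap by 7974 bases on 1 strand, so their counts are not independent.

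Of the antigen processing members, Psmb8, a catalytic subunit of the immunoproteasome, was called higher in α7HMZ livers in the fed average and after fasting. The fed WT level was 15.1, 16.4 and 12.4 CPM at 10:30, 17.3, 16.1 and 14.03 CPM at 13:30 and, at 20:30, 31.8, 29.2 and 27.7 CPM. Fed α7HMZ livers had 22.4, 23.8 and 27.7 CPM at 10:30, 22.9, 20.8 and 28.3 CPM at 13:30 and, at 20:30, 62.4, 26.5 and 30.3 CPM. After fasting WT livers had 9.23, 11.4 and 11.5 CPM and α7HMZ livers 14.5, 13.6 and 37.9 CPM. The genotypes overlapped at 20:30 and in no other condition. It was called in the fed average (log2 fold change 0.60, SE 0.14, edgeR adjusted p = 0.00266; without replicate 1 of 20:30 0.43, SE 0.08, edgeR adjusted p = 0.00079), at 10:30 (log2 fold change 0.76, SE 0.24, edgeR adjusted p = 0.0358; lost in 6 of the 18 fits without 1 library) and after fasting (log2 fold change 1.03, SE 0.32, edgeR adjusted p = 0.0419). The fasted call was lost in 8 of the 12 fits without 1 library, and without replicate 3 of α7HMZ the difference was 0.37 (SE 0.17, edgeR adjusted p = 0.183). Without replicate 1 of fed α7HMZ at 20:30 the Psmb8 difference at that time was -0.06 (SE 0.15, edgeR adjusted p = 0.827). Psmb9, its partner subunit, and Tap1, the peptide transporter, were not called in the fed average or after fasting (0.66 and 0.32 after fasting). Without replicate 3 of fasted α7HMZ both turned, to -0.31 and -0.49, and without replicate 1 of fed α7HMZ at 20:30 Psmb9 was called lower in the fed average (log2 fold change -0.34, SE 0.11, edgeR adjusted p = 0.0328). Psmb9 and Tap1 lie head to head with 212 shared bases, and the library kit does not mark strand.

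The chemokines Cxcl9 and Cxcl10 attract T cells through Cxcr3. Cxcl9 was at 6.44, 7.696 and 6.18 CPM in fed and 2.31, 1.66 and 2.54 CPM in fasted WT livers at 10:30. In α7HMZ livers it was at 7.08, 9.49 and 6.16 CPM when fed and 3.57, 6.78 and 14.1 CPM when fasted. The fasted WT livers were below all other libraries, fell from the fed WT level (log2 fold change -1.63, SE 0.40, edgeR adjusted p = 0.0108) and were below fasted α7HMZ livers (log2 fold change 1.89, SE 0.40, edgeR adjusted p = 0.00609; without replicate 3 1.23, SE 0.28, edgeR adjusted p = 0.013). At 13:30 and 20:30 fed WT livers had 9.95, 9.09 and 6.47 CPM and 15.9, 8.97 and 8.32 CPM, and fed α7HMZ livers 4.97, 5.497 and 10.6 CPM and 43.4, 6.82 and 6.19 CPM. These overlapped, with replicate 1 of α7HMZ at 20:30 far above the rest. Cxcl10 was not called after fasting (log2 fold change 1.57, SE 0.58, edgeR adjusted p = 0.0866; 0.50 without replicate 3, adjusted p = 0.526), and 2252 of its bases overlap Art3 on the opposite strand.

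Of the other response genes, Parp14, an ADP-ribosyltransferase, was higher in fasted α7HMZ than in fasted WT livers (log2 fold change 0.88, SE 0.27, edgeR adjusted p = 0.042; lost in 8 of the 12 fits without 1 library, up to 0.199), and Trim30a was not called (0.71; 0.13 without α7HMZ replicate 3). Xaf1, which binds an inhibitor of apoptosis, was at 13.2, 15.5 and 22.6 CPM in fasted WT and 12.2, 10.4 and 12.03 CPM in fasted α7HMZ livers. The WT livers were above the α7HMZ livers, against the direction of the list, but the difference was not called (log2 fold change -0.57, SE 0.19, edgeR adjusted p = 0.0588). At 20:30 it was lower in α7HMZ livers (log2 fold change -0.64, SE 0.18, edgeR adjusted p = 0.0189; up to 0.110 without WT replicate 3 or α7HMZ replicate 2 or 3).

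Replicate 1 of fed α7HMZ at 20:30 was the highest of its group in all 39 members, against 28.7% of all genes, and 22 members were over 2-fold above the mean of the other 2 livers. Igtp was at 283, 33.8 and 44.04 CPM there, and Gbp6 at 57.2, 4.75 and 4.27 CPM. Without replicate 1 the members' median at 20:30 moved from 0.19 to -0.42, with 7 called lower and 0 higher (Bst2, Oasl1, Irf7, Xaf1, Psmb9, Gbp6 and Irf8). With all fed libraries 10.8% of all genes were called lower and 8.29% higher at 20:30. The shares without replicate 1 are not given, so the 7 are not set against them. The T and NK cell markers of replicate 1 summed to 8.50 CPM against 1.56 and 3.32 CPM, and its Kupffer cell markers to 332.5 CPM against 102.9 and 247.7 CPM.

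Replicate 3 of fasted α7HMZ was the highest of its group in 36 of 39 members, against 30.9% of all genes, with 16 members over 2-fold above the mean of the other 2 livers. Gbp2 had the largest ratio, at 2.25, 2.55 and 10.9 CPM (4.53-fold). The ISG15 system stood out less, with ratios of 1.53 for Usp18 and 1.22 for Isg15, as did Oasl1 at 1.10. In replicate 1 of the fed 20:30 group the largest ratio was that of Gbp6 (12.7-fold), followed by Cxcl10 (8.15-fold) and Igtp (7.26-fold), and Oasl1 (1.20-fold) and Ifih1 (1.12-fold) were among the smallest.

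**Figure D5:**
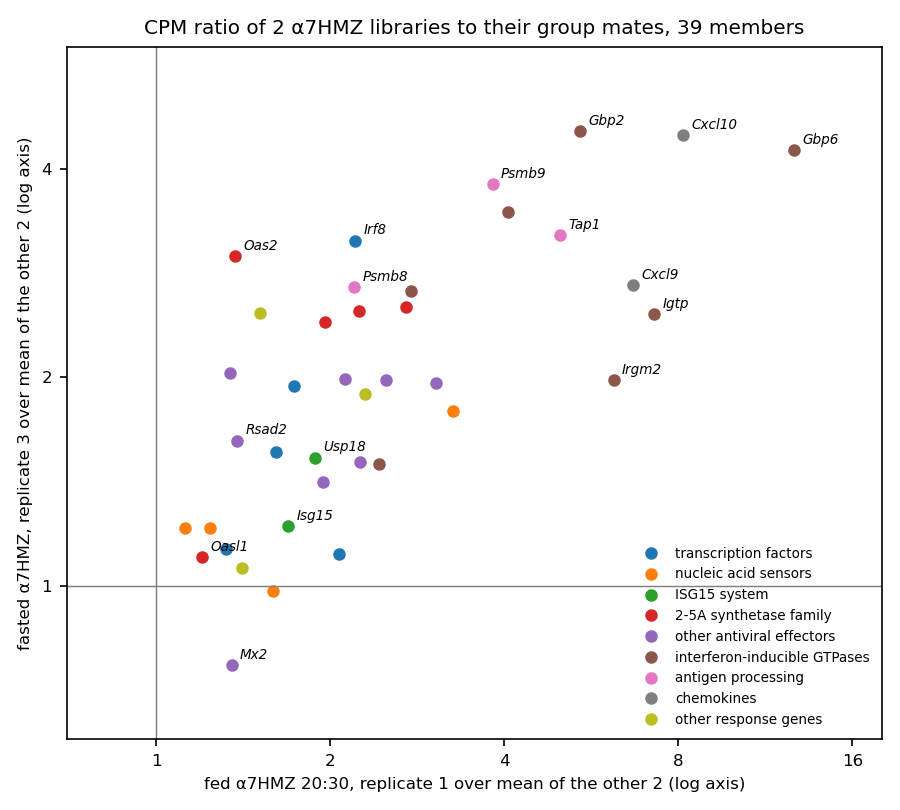
CPM of replicate 1 of fed α7HMZ at 20:30 over the mean of the other 2 livers of its group (x axis, log) against the same ratio for replicate 3 of fasted α7HMZ (y axis, log), 1 point for each of the 39 members, coloured by role. Gbp6 (12.7), Cxcl10 (8.15) and Igtp (7.26) lie farthest to the right, and Isg15, Oasl1 and Mx2 lie near 1 on the y axis or below it.

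The members were positively correlated across mice, and no such value was taken for other genes. After removing group means, the median correlation between pairs of members over the 24 libraries was 0.57, and 0.40 over 22 libraries without the pair that stood apart. Within the 7 GTPases it was 0.90 over the 24 libraries and was not taken without that pair, in which Gbp6, Igtp and Irgm2 stood far apart. Igtp and Irgm2 also share annotated bases. These are descriptions, and the points share library and depth. The per-library median ratio of the members ran from -0.12 to 0.16 in fed WT livers at 10:30, from -0.33 to -0.07 at 13:30 and from -0.23 to 0.31 at 20:30, and from -0.57 to -0.47 in fasted WT livers.

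Between 13:30 and 20:30, which lie within 1 flow cell, Oasl1, Usp18, Psmb8 and Xaf1 were higher and Oas2 lower in the evening in WT livers, 4 and 1 of 39 (all genes 11.6% and 9.97%). Oas2 went the other way (log2 fold change -1.41, SE 0.30, edgeR adjusted p = 0.00375). Usp18 was among the higher (log2 fold change 0.90, SE 0.31, edgeR adjusted p = 0.0468; lost in 9 of the 18 fits without 1 library) and so was Psmb8 (log2 fold change 0.91, SE 0.24, edgeR adjusted p = 0.0114). Without WT replicate 3 of 13:30, 1 member was called, without WT replicate 1 of 13:30 or replicate 2 of 20:30, 3 were, and without α7HMZ replicate 1 of 20:30, 11 were. In α7HMZ livers 0 members were called by edgeR (all genes 5.21%, of which 3.16% higher and 2.05% lower). DESeq2 called 2, and edgeR called 6 or 5 without replicate 2 or 3 of the α7HMZ group at 20:30. At an unadjusted p under 0.05 there were 9 members, and the share of all genes at that threshold is not given. The difference in this evening change between genotypes was not tested on its own, apart from the test over all 3 times.

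That test of genotype by time called Ddx58, Oasl1 and Irf1, 3 of 39, against 4.99% of all genes. The count was 0 without WT replicate 2 of 10:30 and 5 without α7HMZ replicate 1 of 20:30. The 10:30 livers were on flow cell 375 and the later ones on 377, so the test spans both.

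Other genes of the pathway were read from a list of 105, of which 102 were in the table. In the fed average 7 of 89 tested were higher and 5 lower in α7HMZ livers, against 13.3% and 13.2% of all genes. Without replicate 1 of α7HMZ at 20:30 these were 4 and 10, against 12.5% and 12.7% of all genes. After fasting 24 of 88 were higher and 1, Irf3, lower, against 6.90% and 8.65% of all genes. Without replicate 3 of fasted α7HMZ 8 were higher, against 4.34% of all genes, and 0 were lower. Smallest in p in fed livers were Irf5 (log2 fold change -1.27, SE 0.13, edgeR adjusted p = 7.14e-07), a factor of inflammatory and interferon genes, Ifitm3 (log2 fold change -0.91, SE 0.10, edgeR adjusted p = 1.95e-06), which blocks virus entry, Lgals9 (log2 fold change -0.44, SE 0.06, edgeR adjusted p = 8.25e-06) and the proteasome activator Psme1 (log2 fold change 0.49, SE 0.07, edgeR adjusted p = 3.64e-05). After fasting these were Cmpk2 (log2 fold change 1.81, SE 0.23, edgeR adjusted p = 0.00015), the neighbour of Rsad2 in the genome, Lgals3bp (log2 fold change 1.07, SE 0.15, edgeR adjusted p = 0.000343), Ly6e (log2 fold change 1.40, SE 0.23, edgeR adjusted p = 0.00126) and Samd9l (log2 fold change 1.01, SE 0.19, edgeR adjusted p = 0.00324).

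By position in the pathway, of 8 receptor chains and kinases tested 2 were higher after fasting, Il10rb and Ifngr1 (log2 fold changes 0.73 and 0.48), and Ifnar1 was not called (0.11). Of 10 sensors and adaptors 1 was higher, Myd88. Without replicate 3 of fasted α7HMZ 0 of the 8 and 0 of the 10 were called. Of 16 antigen presentation genes 6 were higher, among them the class II genes Cd74 (3.57), H2-Aa, H2-Ab1 and H2-Eb1, and 0 were called without replicate 3, when Cd74 was at 0.45. That library also had the highest sums of Kupffer cell markers and of monocyte and neutrophil markers in its group, and their part in this was not tested. Of 44 further response genes 13 were higher and 0 lower (6.90% and 8.65% of all genes), and 6 were higher without replicate 3. With fasting in WT livers 3 of the 88 were higher and 15 lower, against 12.0% and 10.6% of all genes. Without replicate 3 of fasted α7HMZ 4 were higher and 29 lower, against 12.5% and 12.2% of all genes.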

How the data were processed

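Poly(A) RNA of mouse liver was sequenced in 24 libraries (8 groups of 3 mice). The deposited values used here are raw counts per gene symbol. According to the methods and the labels, the authors mapped 75-base reads, sequenced from 1 end, using TopHat2 2.1.1 against mm10, kept those that aligned uniquely, and assigned them to genes using HTSeq 0.6.1. The kit does not mark strand. The deposited FPKM were not used.

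The tests used edgeR 4.0.16 under R 4.3.3 (TMM normalization, filterByExpr on the groups, quasi-likelihood test, Benjamini-Hochberg adjusted p under 0.05 over all genes tested). The 18 fed libraries formed 1 fit (13334 genes) and the 12 libraries at 10:30 another (13103 genes). SE is the log2 fold change divided by the root of F. CPM are counts relative to the library size, scaled by TMM over all 24 libraries. Fits were tested on simulated counts. Replicate numbers did not pair the samples. The closest replicates differed by a chi-square of 11.7 per degree of freedom, so none was counted as a duplicate. Of 23411 symbols, 21777 matched GENCODE by symbol and 1276 by an older symbol. Promoter windows came from RefSeq.

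Values per library are given for the 6 members with the smallest p for genotype in the fed average, genotype after fasting and fasting in WT, for the 3 with the smallest p of each interaction, for members called in both genotype comparisons, and for Zbp1 for its distance from Hnf4a. For 4 other pathway genes in each genotype comparison the log2 fold change, SE and adjusted p are given, without values per library. Members named beyond these were chosen after their values were seen. The members and lists were chosen with earlier results of these data known. Alternatives were other normalizations (EDASeq was not run, and offsets followed its description), DESeq2 1.42.0, other filters, other sets of libraries, a replicate block and leaving out each library. Leaving out the libraries highest in Rn45s, Ctrb1 or Krt19 was chosen after seeing the data.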

Additional observations from a re-analysis of the deposited data

Results flagged for a closer look

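The genotype difference of Ddx58 in fed livers depended on the time of day (edgeR adjusted p = 0.0167), from lower in α7HMZ livers at 10:30 to higher at 13:30. The same test passed for Oasl1 (edgeR adjusted p = 0.0371) and for Irf1 (edgeR adjusted p = 0.0434). Of the 18 fits without 1 library, 1 lost the call of Ddx58, 11 that of Oasl1 and 10 that of Irf1. The 10:30 livers were on another flow cell than the later ones. The genotype difference of Oasl1 at 10:30 also changed between fed and fasted livers (edgeR adjusted p = 0.0295). That call was lost in 8 of the 12 fits without 1 library. Of the groups compared, only fasted α7HMZ livers were on flow cell 377.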

How the results depend on the processing

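With 3 livers a group, counts of called members moved with single libraries, and the cause was not tested. The share of all genes called can move as well, and it is not given beside the counts of this section. A changed count is thus not set against all genes here. Leaving out each library in turn gave 5 to 9 members in the fed average, 2 to 6 at 10:30, 1 to 7 at 13:30, 2 to 7 at 20:30, 12 to 23 for genotype after fasting, 3 to 19 for fasting in WT, 2 to 6 for fasting in α7HMZ, 1 to 11 for evening in WT, 0 to 6 for evening in α7HMZ, 0 to 5 for genotype by time and 0 to 2 for genotype by fasting. DESeq2 called 2 members for evening in α7HMZ, 6 for fasting in α7HMZ and 6 for genotype by fasting. No filter gave 1 for evening in α7HMZ and 3 for genotype by fasting. All 24 libraries in 1 fit gave 2 at 13:30 and 3 for genotype by fasting. Only the compared groups gave 9 at 13:30, 2 at 20:30, 11 for genotype after fasting, 20 for fasting in WT and 10 for evening in WT. Without the libraries highest in Rn45s, Ctrb1 or Krt19, chosen after seeing the data, the counts were 11 in the fed average, 7 at 10:30, 8 at 13:30, 6 for genotype after fasting, 5 for fasting in WT, 9 and 1 for evening in WT and α7HMZ, 5 for genotype by time and 2 for genotype by fasting.

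The replicate numbers do not pair the samples: the correlations of same-numbered deviations ran from -0.174 to 0.095 over 18 pairs. With the replicate block the count for genotype by fasting was 0, that for genotype after fasting was 19 (18 higher, 1 lower), and no other count moved by over 1.5 times. Over the named members, 1288 values of the alternatives planned kept their direction and side of the threshold, 217 lost the threshold and 14 gained it. No called value changed sign. Depth limits the members with few counts.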
